A study of Mus musculus with 4 samples.

Results

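The replication-dependent histone genes of mouse were followed in total RNA from mouse embryonic fibroblast (MEF) cells with and without topoisomerase 2β. The members were every gene in the count table whose mouse symbol begins with Hist1h, Hist2h, Hist3h or Hist4h, which gave 70 of 54842 genes. By class they were 6 linker histone H1 genes, 20 H2A, 19 H2B, 12 H3 and 13 H4 genes. By cluster, 56 carried a Hist1 symbol (chromosome 13), 10 Hist2 (chromosome 3), 3 Hist3 (chromosome 11) and 1 Hist4 (chromosome 6). The rule itself uses symbols and no measured value, although this gene family was taken up with earlier results of these data known.

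The 4 libraries came from untreated MEF cells, 2 from wild-type (wt) cells and 2 from cells null for Top2β. The null cells were received as a gift, and whether the wt cells share their parental line is not given in the sources used here, so loss of Top2β and any difference in origin cannot be told apart. RNA was depleted of ribosomal RNA and not selected for poly(A) tails. Each library held between 133116830 and 149647278 counts over genes and repeat families. The targeted gene, Top2b, stood at 18259 and 18465 normalized counts in wt and at 3879 and 3789 in null cells (log2 fold change −2.26). Fibroblast genes were abundant in every library, with Col1a2 between 183207 and 189950 normalized counts. The 12 fibroblast markers summed to 1435450 and 1461810 normalized counts in wt cells and to 1026930 and 1032370 in null cells, Lum being near 0 in all 4 libraries. Of the 11 tested, 4 were called higher in null cells (Dcn 4.99, Thy1 2.07, Pdgfrb 1.88 and Pdgfra 1.16 as log2 fold changes) and 2 lower (Col1a1 −1.38 and Col3a1 −1.01). Markers of other cell types were low. They moved in both directions in the leukocyte, endothelial and germ cell lists, and only lower in the epithelial and muscle lists. The 8 leukocyte markers summed to 2420 and 2501 in wt and 1351 and 1356 in null cells, with Tyrobp at 0. Cd68 was called lower (1641 and 1688 to 302 and 289), while the other 3 tested, Csf1r, Fcer1g and Itgam, were higher (log2 fold changes 0.36, 0.74 and 4.68). The 5 endothelial markers summed to between 162 and 259, with Kdr called higher (71.7 and 68.6 to 203 and 205), Tek lower (43.4 and 34.8 to 9.32 and 3.96) and 2 others not past the test. The 8 germ cell markers summed to between 293 and 428, with Dazl at 0. Sycp1, a protein of meiotic chromosomes, was called higher, at 0 in both wt libraries and at 185 and 249 in the null libraries, and Acrv1, a sperm acrosome protein, was lower (87.8 and 94.7 to 16.6 and 11.9). The 6 epithelial markers summed to 761 and 799 in wt and to 584 in both null libraries. The 4 tested were all lower, with log2 fold changes of −3.13 (Krt8), −3.76 (Cldn4), −1.38 (Cdh1) and −0.30 (Krt19). The 4 muscle markers summed to 88.8 and 139 in wt and to 3.11 and 0.990 in null cells. Des, the only 1 tested, was lower (log2 fold change −6.12). The part of all these markers in the results below was not tested.

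Replication-dependent histone genes supply the core histones H2A, H2B, H3 and H4 and the linker histones H1 that package DNA newly made in S phase. Most lack introns and give mRNAs that end in a conserved stem-loop instead of a poly(A) tail. The stem-loop is bound by SLBP, and the end is cut with the help of the U7 small nuclear ribonucleoprotein. The genes lie in dense clusters, where H2A and H2B genes often sit head to head over a short shared promoter, and NPAT gathers at the clusters to drive their transcription.

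The stem-loop identifies this kind of mRNA, so it was looked for after the stop codon of each member in the GENCODE M21 transcripts (mouse genome GRCm38), as a 6-base stem beginning GG, a 4-base loop beginning TT and the exact complement of the stem. It was present in 42 of the 48 coding members with at least 60 annotated bases after the stop codon, and in 44 members in all, starting 21 to 58 bases after the stop. The most frequent form, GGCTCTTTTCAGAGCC, was in 26 members (10 H2A, 8 H2B, 5 H3 and 3 H1). H4 genes had other stems, most often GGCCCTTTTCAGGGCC, which was in 7 H4 members and in no other class. Examples are given for members whose counts differed most or were highest, 5′ to 3′, with the stem-loop in capitals and the 5 bases on each side in lower case:
Hist4h4: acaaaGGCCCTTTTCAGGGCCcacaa
Hist1h2bp: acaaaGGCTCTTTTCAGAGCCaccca
Hist1h2ac: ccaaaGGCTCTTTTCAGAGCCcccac
Hist1h2ag: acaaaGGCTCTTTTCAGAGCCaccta
Hist1h2bj: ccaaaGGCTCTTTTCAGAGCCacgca
Hist1h3c: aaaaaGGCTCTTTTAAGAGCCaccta
Hist1h1e: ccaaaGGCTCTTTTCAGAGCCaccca
For Hist1h1a the annotated transcript ends 15 bases into the 16-base stem-loop, at ccaacGGCTCTTTTCAGAGC. The 13 coding members with no annotated base after the stop codon, Hist1h1b and Hist1h2bn among them, could not be searched. Hist2h2be, Hist1h2bc, Hist1h2bq and Hist1h2br have long annotated ends with no such stem-loop, and the last 3 of these are also annotated with more than 1 exon. The symbol pattern also took in 3 pseudogenes, Hist3h2bb-ps, Hist1h2aj and Hist1h2al, and testis histones such as Hist1h1t, Hist1h2aa and Hist1h2ba. Not all 70 members are thus histone genes of S phase.

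Single members differed in both directions, while the summed histone counts differed little between the 2 genotypes. The members' share of all counts was 0.600% and 0.625% in wt cells and 0.634% and 0.665% in null cells. Their normalized counts summed to 862285 and 903029 in wt and to 873682 and 910597 in null cells, a log2 ratio of 0.015 with a replicate SD of 0.045, so the groups overlapped under this TMM scaling. With libraries scaled to their total counts the log2 ratio was 0.0854, and the shares of all counts above are higher in both null libraries. All 70 members had enough counts to be tested, and 62 had a mean normalized count above 1000.

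Of the 70 members, 25 were higher and 31 were lower in Top2β-null cells at an adjusted p below 0.05 (edgeR quasi-likelihood test, Benjamini-Hochberg adjustment over 26566 genes and repeat families). These are 35.7% and 44.3% of the members, beside 32.5% of all features in each direction. The balance depends on the scaling: with libraries scaled to their total counts 29 were higher and 23 lower, and without null replicate 1 the numbers were 28 and 27. Members were called changed when the absolute log2 fold change was also above 1 and the mean normalized count above 100. This held for 5 higher and 5 lower members, or 7.14% in each direction, beside 5.27% of all features called higher and 4.97% called lower. All features include many with lower counts than most members. Of the 9813 genes with a mean normalized count above 1000, 5.35% were called higher and 6.28% lower. The members' median log2 fold change was −0.07, beside 0.0027 over all features tested. Changes were small for most members: 46 differed by less than 0.5 on the log2 scale, 11 by 0.5 to 1 and 13 by more than 1. Among members with a mean normalized count above 1000 the median absolute log2 fold change was 0.22, beside 0.31 for the 9813 genes above that level.

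**Figure D1:**
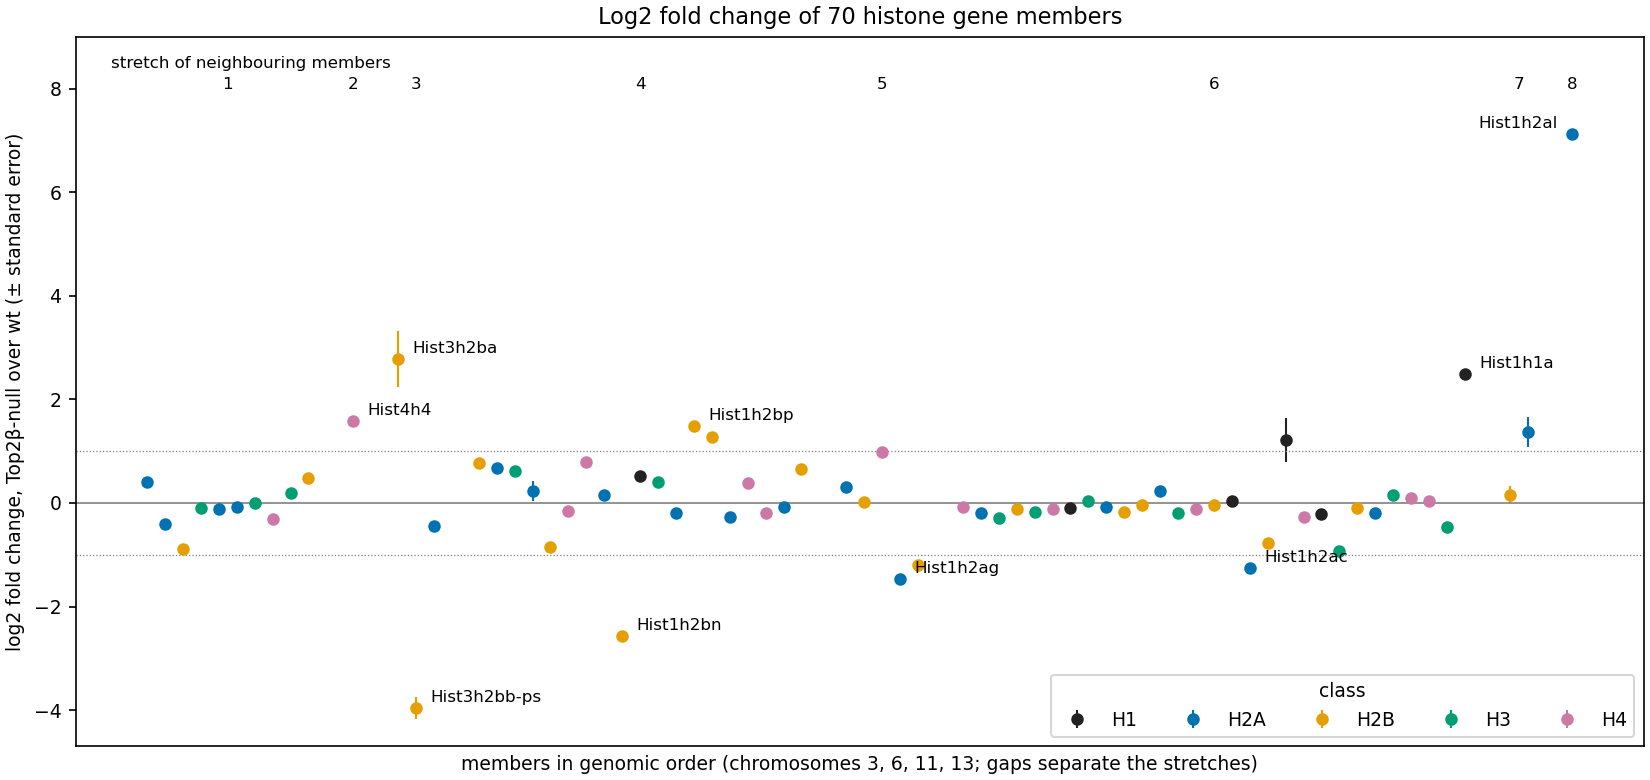
Log2 fold change of normalized counts, Top2β-null over wt, for the 70 members in genomic order, with the standard error from edgeR and colours for the histone class; dotted lines mark a log2 fold change of 1 in either direction and numbers mark the 8 stretches of neighbouring members. Most points lie near 0, and single members such as Hist1h1a (2.48), Hist4h4 (1.58), Hist1h2bn (−2.58) and the pseudogene Hist1h2al (7.12) stand apart from their neighbours.

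The linker histones, which bind the DNA entering and leaving the nucleosome, differed in their makeup. Hist1h1a, the gene of subtype H1.1 (chr13:23763666-23764406, plus strand, 1 exon), stood at 4399 and 4434 normalized counts in wt cells and at 24893 and 24441 in null cells. Both null libraries lay far above both wt libraries, and the mean was 5.59-fold higher (log2 fold change 2.48, SE 0.027, adjusted p = 1.96e-19, edgeR). No 150-base window of Hist1h1a occurs in another annotated transcript.

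Hist1h1b (subtype H1.5) had 19566 and 19510 normalized counts in wt and 27555 and 28763 in null cells, and rose by a log2 fold change of 0.53 (adjusted p = 4.01e-11, edgeR). Hist1h1c (H1.2) fell from 33671 and 33668 to 28862 and 29596 (log2 fold change −0.20, adjusted p = 2.74e-06, edgeR). These 2 genes thus moved in opposite directions with no overlap between genotypes. Hist1h1d (H1.3) was at 35203 and 34863 in wt and 32863 and 32933 in null cells (log2 fold change −0.09, adjusted p = 0.0043, edgeR). Hist1h1e (H1.4), the most counted H1 gene, was at 44205 and 45993 in wt and 45852 and 46208 in null cells, and its groups overlapped (log2 fold change 0.03, adjusted p = 0.363, edgeR). The decrease of Hist1h1d did not pass the test when libraries were scaled to their total counts (−0.02) or when null replicate 1 was left out (−0.05). The testis gene Hist1h1t had 13.1 and 7.73 normalized counts in wt and 29.0 and 19.8 in null cells (adjusted p = 0.0195, edgeR), a difference that did not pass under DESeq2, where its log2 fold change was 1.23. Without wt replicate 2 it was 0.87 and without null replicate 1 it was 0.96, and neither passed.

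As a share of all H1 counts, Hist1h1a made up 3.21% and 3.20% in wt cells and 15.6% and 15.1% in null cells. Hist1h1e went from 32.3% and 33.2% to 28.6% and 28.5%, Hist1h1d from 25.7% and 25.2% to 20.5% and 20.3%, and Hist1h1c from 24.6% and 24.3% to 18.03% and 18.3%. Hist1h1b went from 14.3% and 14.1% to 17.2% and 17.8%. The summed H1 counts were 137055 and 138477 in wt and 160055 and 161960 in null cells, a log2 ratio of 0.22 with a replicate SD of 0.011. The mean of the class went from 137766 to 161008 and that of Hist1h1a from 4417 to 24667. Without Hist1h1a the log2 ratio of the H1 sum was 0.032.

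**Figure D2:**
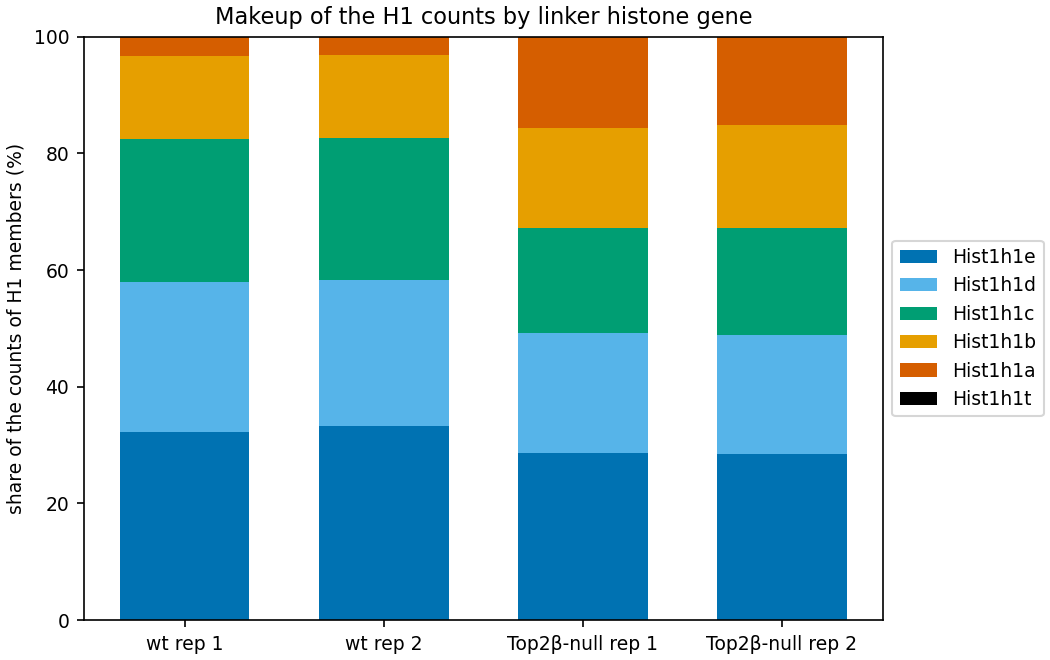
Share of the normalized counts of the 6 H1 genes held by each gene (%), one bar per library, with Hist1h1t too small to be visible. Hist1h1a takes about 3.2% of each wt bar and 15.6% and 15.1% of the null bars.

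The H1 box, AAACACA, is an element known from H1 promoters, and its letters were searched for beside the H1 values. RefSeq promoter windows, from 250 bases before to 50 bases after the start site (GRCm38.p6), were available for 62 of the 70 members. AAACACA on either strand was in 5 of the 6 H1 promoters, beside 7.14% of all 27025 promoters, and started between 112 and 122 bases before the start site in each. On the gene's own strand and between 130 and 93 bases before the start site it was in 0.514% of all promoters. The 5 windows, and for Hist1h1a the 7 bases most like the box between 130 and 100 bases before the start site, read as follows on the gene's strand, with those 7 bases in capitals:
Hist1h1b, chr13:21780726-21780752, minus strand: ggggactaacAAACACAatttgggatt
Hist1h1d, chr13:23554900-23554926, plus strand: gaggggcaacAAACACAgccacaaggc
Hist1h1e, chr13:23622657-23622683, minus strand: gaggtgtaacAAACACAactccgcatc
Hist1h1t, chr13:23695687-23695713, plus strand: gggggaaaagAAACACAaatgcccctc
Hist1h1c, chr13:23738685-23738711, plus strand: gaagtgtaacAAACACAagttgggcgc
Hist1h1a, chr13:23763542-23763568, plus strand: gaaatcttgcAGGCAGAcaggcgcacg
The best match in the Hist1h1a window has 4 of the 7 letters. A match or its absence describes these letters in this window and no more. CCAAT, on either strand, was in all 50 promoter windows of H1, H2A, H2B and H3 members and in 3 of the 12 H4 windows, beside 37.9% of all promoters. TATAAA was in 56.5% of the members' windows and in 14.2% of all. The octamer ATTTGCAT, known from H2B promoters, was in 7 of 18 H2A and 6 of 16 H2B windows, in no H1, H3 or H4 window, and in 1.75% of all promoters. These H2A and H2B numbers are not independent. Hist1h2ah with Hist1h2bk, Hist1h2ae with Hist1h2bg, and Hist1h2aa with Hist1h2ba have overlapping windows that hold the same site.

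The H2A class, which pairs with H2B in the nucleosome, held the largest rise of all members and 2 of the 5 called falls. Hist1h2ac (chr13:23681467-23683948, minus strand) had normalized counts of 5953 and 6134 in wt and 2425 and 2613 in null cells, 2.40-fold lower (log2 fold change −1.26, SE 0.038, adjusted p = 5.90e-14, edgeR). Hist1h2ag (chr13:22042460-22042944, minus strand) had 5481 and 5538 in wt and 1895 and 2069 in null cells, 2.78-fold lower (log2 fold change −1.47, SE 0.041, adjusted p = 2.14e-14, edgeR). In both genes the 2 null libraries lay below the wt libraries with no overlap. Of the 150-base windows of Hist1h2ag, 65.5% also occur in other annotated transcripts, against 5.62% for Hist1h2ac, so reads of Hist1h2ag are harder to place. Over all members, 15 have no recurring window and 25 have over 50%. Hist2h2ac, with the most H2A counts, was at 13760 and 13693 in wt and 10225 and 10411 in null cells (log2 fold change −0.41, adjusted p = 3.86e-10, edgeR). Hist1h2ab was at 9215 and 9769 in wt and 8266 and 8304 in null cells (log2 fold change −0.20).

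Hist1h2al is annotated in GENCODE M21 as a processed pseudogene of an H2A gene and lies apart from the histone clusters (chr13:51202727-51203065, minus strand). It had 53.5 and 48.3 normalized counts in wt and 7072 and 7070 in null cells, the largest log2 fold change of all members (7.12, SE 0.064, adjusted p = 2.49e-20, edgeR). The wt libraries held almost none of this RNA, while in the null libraries it was 9.004% and 8.69% of all H2A counts. None of its 150-base windows occurs in another annotated transcript. Gm44341, a miRNA model on the opposite strand that overlaps it in part, went from 51.5 and 46.4 to 1707 and 1768.

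Summed over H2A members the counts were 82672 and 82867 in wt and 78537 and 81332 in null cells (log2 ratio −0.05, replicate SD 0.025). Without the 2 H2A pseudogenes the ratio was −0.18. Without Hist2h2ac it was 0.01, and with scaling to total counts 0.02, so the direction of the H2A sum turns with these choices. The median over the 20 H2A members was −0.07. Of them, 7 were higher and 9 lower at an adjusted p below 0.05, beside 32.5% of all features in each direction.

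Many H2A genes share their bases with a second gene model, which bears on every H2A value. Of the 20 H2A members, 19 have a miRNA model on the opposite strand, 17 of these models lying wholly within the member. These models held 41706 and 43365 normalized counts in wt and 34250 and 37390 in null cells, from 12.3% to 88.6% of the mean of the member they lie in. Their log2 fold changes had the host gene's direction in the called members: Gm44350 within Hist1h2ac at −1.15 beside −1.26, and Gm44486 within Hist1h2ag at −0.82 beside −1.47. In members not called the sizes were alike in some and not in others. Gm44454 within Hist1h2ak was at 0.14 beside 0.15. Gm44484 within Hist1h2ab was at −0.67 beside −0.20, and Gm44346 within Hist1h2an at −0.71 beside −0.18. Whether the counting used strand is not given in the sources used here, so reads of a member and of the model opposite it cannot be told apart. With these models added, the log2 ratio of the H2A sum was −0.11.

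H2B, the partner of H2A, had the most called members, 2 higher and 3 lower of 19, beside 5.27% and 4.97% of all features. Hist1h2bn (chr13:21754123-21754503, plus strand) had 17736 and 19117 normalized counts in wt and 3082 and 3100 in null cells, 5.96-fold lower (log2 fold change −2.58, SE 0.035, adjusted p = 2.98e-18, edgeR). It fell from 9.34% and 9.72% of all H2B counts per library to 1.81% and 1.69%. Hist1h2bj (chr13:22043214-22043676, plus strand) had 14951 and 15501 in wt and 6442 and 6828 in null cells (log2 fold change −1.20, SE 0.031, adjusted p = 6.70e-15, edgeR). Neither gene's groups overlapped, and 34.9% and 22.3% of their windows recur in other transcripts. Hist3h2bb-ps, an H2B pseudogene, was at 254 and 285 in wt and 21.7 and 12.9 in null cells (log2 fold change −3.96, SE 0.21, adjusted p = 9.08e-11, edgeR), and none of its windows recurs.

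Hist1h2bp (chr13:21787461-21789213, plus strand) had 1195 and 1261 normalized counts in wt and 3354 and 3531 in null cells (log2 fold change 1.49, SE 0.048, adjusted p = 1.10e-13, edgeR). Hist1h2bq (chr13:21806612-21810197, minus strand) had 7128 and 6904 in wt and 15756 and 18310 in null cells (log2 fold change 1.28, SE 0.049, adjusted p = 1.14e-12, edgeR). Both are annotated with more than 1 exon, unlike most histone genes, and 22.6% of the windows of Hist1h2bp recur. Of the windows of Hist1h2bq, 92.4% recur elsewhere, chiefly in its near copy Hist1h2br, which rose by a log2 fold change of 0.65. With these copies summed, counts went from 15173 and 15337 to 28386 and 31596, a log2 ratio of 0.98, under the cut-off for a call.

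Other abundant H2B genes differed by less than the cut-off, in both directions. Hist1h2bc had 20532 and 21186 normalized counts in wt and 11875 and 12413 in null cells (log2 fold change −0.78), and Hist1h2bm 8404 and 9062 in wt and 4637 and 5043 in null cells (−0.85). Hist1h2bl had 8345 and 8269 in wt and 13533 and 14871 in null cells (log2 fold change 0.77). The first 2 of these genes fell and the third rose, each without overlap. Hist1h2bg, with the most H2B counts, had 28280 and 28528 in wt and 24370 and 26053 in null cells (log2 fold change −0.17, adjusted p = 0.000102, edgeR; −0.085 without null replicate 1). Hist1h2bk was at 20056 and 19952 in wt and 19607 and 21055 in null cells, with overlapping groups (log2 fold change 0.02, adjusted p = 0.519, edgeR). Of the windows of Hist1h2bg and Hist1h2bk, 39.02% and 60.9% recur. The H2B sum was 189891 and 196601 in wt and 170109 and 182903 in null cells (log2 ratio −0.13, replicate SD 0.058). The testis gene Hist1h2ba was low, between 110 and 132 in all 4 libraries. Hist3h2ba was also low, at 1.01 and 6.76 in wt and 24.9 and 30.7 in null cells (log2 fold change 2.78, SE 0.54, adjusted p = 0.000304, edgeR). Leaving out wt replicate 2 moved Hist3h2ba to 4.61, and without wt replicate 1 it was 2.01. Hist1h2aa, the testis H2A gene, was at 22.2 and 20.3 in wt and 61.1 and 49.5 in null cells (log2 fold change 1.37, SE 0.29, adjusted p = 0.000634, edgeR). The means of Hist3h2ba and Hist1h2aa are under the level set for a call.

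**Figure D3:**
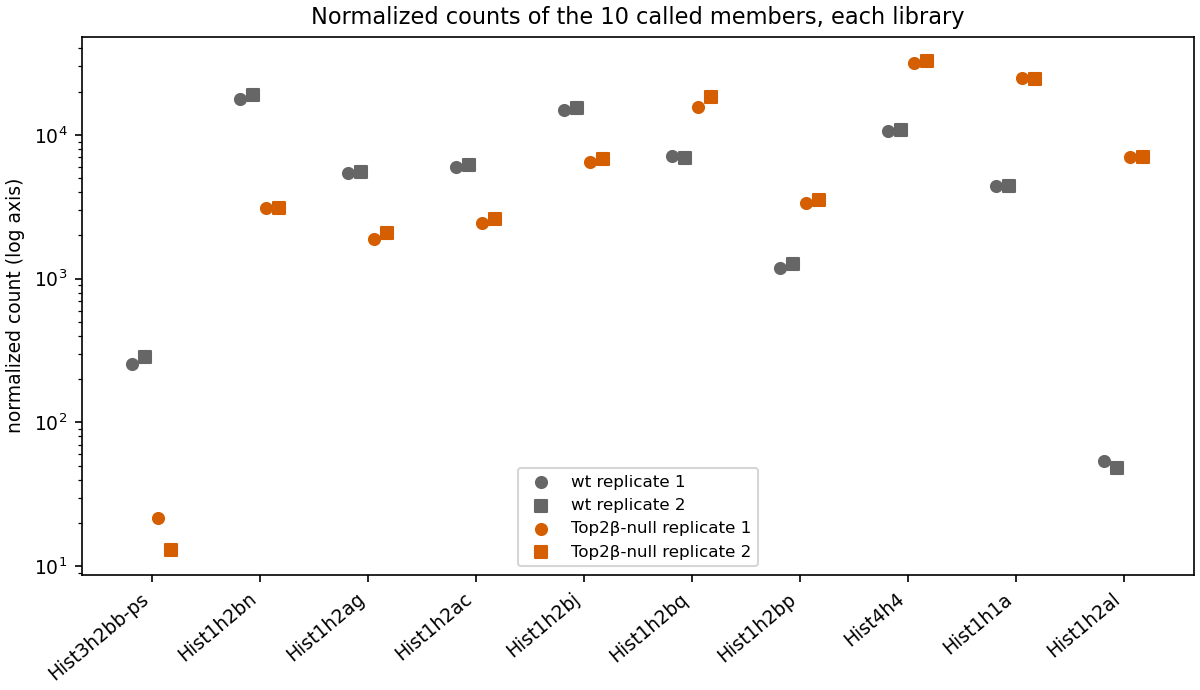
Normalized counts (log axis) of the 10 called members in each of the 4 libraries, wt in grey and Top2β-null in orange, with a circle for replicate 1 and a square for replicate 2. Replicates of a genotype lie close together and the genotypes do not overlap for any of the 10. The cut-offs for a call favour such separation, so it adds nothing to the call. Over all 70 members the groups overlapped in only 11. Hist1h2al goes from about 51 in wt to 7071 in null cells.

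No H3 member was called by edgeR or by DESeq2, while at an unadjusted p below 0.05 in edgeR 4 were higher and 6 lower. Hist1h3c, which encodes replication-dependent H3, came nearest, with 34390 and 35096 normalized counts in wt and 18197 and 18286 in null cells (log2 fold change −0.93, SE 0.025, adjusted p = 1.25e-14, edgeR). Its share of H3 counts went from 16.03% and 15.7% to 9.06% and 8.76%. Hist1h3h had 11525 and 12106 in wt and 18057 and 18353 in null cells, the largest rise of the class (log2 fold change 0.62, adjusted p = 7.31e-12, edgeR), although 90.5% of its windows recur in other transcripts. Hist1h3i, of which 52.7% of windows recur, had a log2 fold change of 0.40. Of the 12 H3 members, 4 were higher and 5 lower at an adjusted p below 0.05, beside 32.5% of all features in each direction, and the H3 sum went from 214505 and 223669 to 200883 and 208767 (log2 ratio −0.10, replicate SD 0.041).

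Hist4h4, the single gene of the Hist4 cluster (chr6:136801553-136804415, minus strand), was the called H4 gene. It had 10685 and 10864 normalized counts in wt and 31738 and 32609 in null cells, 2.99-fold higher and with no overlap (log2 fold change 1.58, SE 0.026, adjusted p = 2.84e-17, edgeR). Of its windows, 0.744% recur in another transcript, a share over the whole annotated transcript and not of its reads. It went from 4.49% and 4.16% to 12.0% and 11.8% of all H4 counts.

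Hist1h4i and Hist1h4k lay under the cut-off of 1. Hist1h4i had 4827 and 5000 normalized counts in wt and 9680 and 9706 in null cells (log2 fold change 0.98, SE 0.028, adjusted p = 2.22e-14, edgeR), and was called when libraries were scaled to total counts or when null replicate 1 was left out. Hist1h4k had 17135 and 18698 in wt and 30192 and 31397 in null cells (log2 fold change 0.78, adjusted p = 8.15e-12, edgeR), with 53.4% of its windows recurring. Hist2h4 showed the largest fall of the class, from 29206 and 30876 to 23899 and 24819 (log2 fold change −0.30, adjusted p = 2.02e-07, edgeR).

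Per kilobase of annotated exon, the members with the highest means were H4 genes, but this did not hold for the whole class. Hist1h4m, for example, had a mean of 5036, under Hist1h2bg (43378) and Hist1h3c (42051). The highest mean was that of Hist1h4k, at 57425 normalized counts per kilobase in wt and 98701 in null cells. Its annotated exon ends at the stop codon, so its length and counts leave out any bases beyond it. Hist1h4h followed at 69376 and 65988, and Hist1h4f at 56490 and 52070. The order of the first 2 thus differed between genotypes: Hist1h4h was above Hist1h4k in wt cells and below it in null cells. Hist1h4h had overlapping groups (30449 and 34765 normalized counts in wt, 30272 and 31757 in null cells, adjusted p = 0.169, edgeR), while Hist1h4f had a log2 fold change of −0.12 (adjusted p = 0.00276, edgeR), which did not pass when libraries were scaled to total counts and was −0.062 without null replicate 1 and −0.18 without wt replicate 1. The H4 sum went from 238162 and 261415 to 264098 and 275636 (log2 ratio 0.11, replicate SD 0.074), while the median over the 13 H4 members was −0.07, the opposite direction. Without Hist4h4 the class mean was 239014 in wt and 237693 in null cells (log2 ratio −0.0080), so the rise of the H4 sum was no larger than that of Hist4h4.

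By share of all histone counts, H1 went from 15.9% and 15.3% in wt to 18.3% and 17.8% in null cells, H2B from 22.0% and 21.8% to 19.5% and 20.1%, and H3 from 24.9% and 24.8% to 23.0% and 22.9%. H4 went from 27.6% and 28.9% to 30.2% and 30.3%, and H2A from 9.59% and 9.18% to 8.99% and 8.93%. Hist1h1a is counted in the H1 share and Hist4h4 in the H4 share. The genotypes did not overlap in any of the 5 shares, the gap being smallest for H2A. These shares are of reads and depend on gene length, so they are not shares of molecules.

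By cluster, the Hist1 members summed to 764403 and 801779 in wt and 761607 and 793748 in null cells (log2 ratio −0.01, replicate SD 0.046). The Hist2 members went from 85116 and 88160 to 78937 and 82784 (log2 ratio −0.10, replicate SD 0.043), and the ratio was −0.0024 without Hist2h4. The 3 Hist3 members, of which Hist3h2a held most counts, went from 2081 and 2227 to 1400 and 1457 (log2 ratio −0.59, replicate SD 0.057). Hist3h2a itself was at 1826 and 1936 in wt and 1354 and 1413 in null cells (log2 fold change −0.44, adjusted p = 1.12e-06, edgeR).

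Within the Hist1 cluster the members fall into stretches separated by more than 150000 bases, and their counts are given stretch by stretch beside the 32.5% of all features that passed in each direction. In the stretch of 19 members from Hist1h2bl to Hist1h2br, 11 were higher and 6 lower in null cells at an adjusted p below 0.05, with a median log2 fold change of 0.39. Its summed counts were 161105 and 169327 in wt and 194911 and 205669 in null cells, without overlap. Of these 19 members, 12 have over 50% recurring windows (7 higher and 3 lower, Hist1h2ai, Hist1h3h, Hist1h2bq, Hist1h4m and Hist1h2br among the higher), and of the other 7 members 4 were higher and 3 lower. In the stretch of 29 members from Hist1h4h to Hist1h1a, 5 were higher and 17 lower, with a median of −0.12, and the sums of 552711 and 581256 in wt and 515803 and 534727 in null cells did not overlap. With scaling to total counts the numbers were 11 higher and 4 lower in the first of these stretches and 8 higher and 12 lower in the second. In the 5 members from Hist1h2ah to Hist1h2bj, 2 were higher and 2 lower. The difference between stretches was not tested. Neighbours could differ sharply within a stretch, as Hist1h1a (log2 fold change 2.48) lies next to Hist1h3a (−0.47) and Hist1h4a (0.03).

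The 38 other genes tested within the span of the Hist1 clusters (chr13:21715763-23934851) had a median log2 fold change of 0.06, but 16 of them overlap a member, 14 of these being miRNA models opposite H2A genes (median −0.10), and the 22 that overlap no member had a median of 0.10. Among all 38, none was called higher by edgeR and 2 were called lower (0 higher and 2 lower by DESeq2, and 9 higher and 12 lower at an unadjusted p below 0.05 in edgeR), beside 5.27% and 4.97% of all features called higher and lower. The 2 were Btn1a1, from 251 and 252 to 21.7 and 45.6, and Gm44350, the model opposite Hist1h2ac.

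There were 14 H2A and H2B pairs arranged head to head, with start sites 173 to 306 bases apart. In 5 pairs both genes changed in the same direction at an adjusted p below 0.05, and in 3 pairs both changed in opposite directions. Since 35.7% of all members passed higher and 44.3% lower, these counts by themselves show no coordination of partners. Hist1h2ag and Hist1h2bj fell together (−1.47 and −1.20), as did Hist1h2ac and Hist1h2bc (−1.26 and −0.78), while Hist1h2ai and Hist1h2bl rose together (0.68 and 0.77).

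In other pairs the partners parted. Hist1h2ak had a log2 fold change of 0.15 (8133 and 8427 normalized counts in wt, 9022 and 9352 in null cells) beside −2.58 for Hist1h2bn, whose start site is 296 bases away. Hist1h2an was at −0.18 beside 1.49 for Hist1h2bp, and Hist1h2ao at −0.28 beside 1.28 for Hist1h2bq. The partners differed by more than 1 on the log2 scale in 6 pairs and by less than 0.5 in 7. Of Hist1h2an and Hist1h2ao, 72.5% and 91.5% of the windows recur in other transcripts, as do 34.9% of those of Hist1h2bn and none of those of Hist1h2ak.

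**Figure D4:**
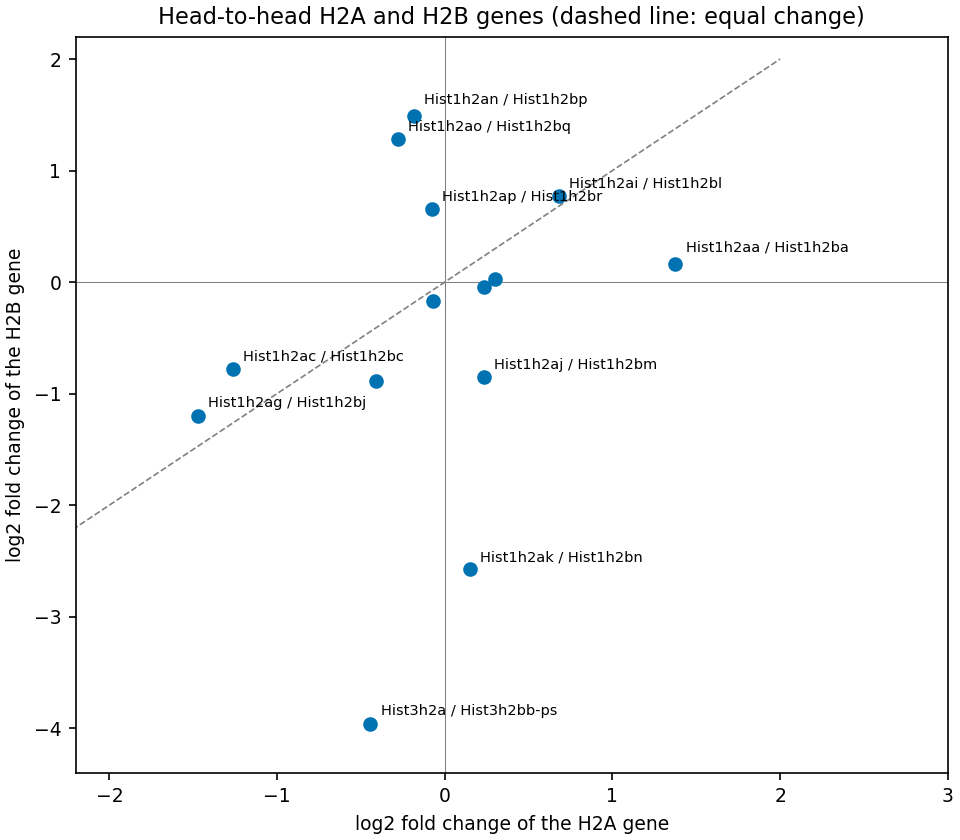
Log2 fold change of the H2A gene (horizontal) and of the H2B gene (vertical) in the 14 head-to-head pairs, with a dashed line where both would change equally; pairs far from the line or far from 0 are named. Hist1h2ag with Hist1h2bj and Hist1h2ac with Hist1h2bc lie near the line, and Hist1h2ak with Hist1h2bn (0.15 and −2.58) lies far from it.

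The genes that make and handle histone mRNA did not share 1 direction. In all the lists that follow, the numbers passing stand beside 32.5% of all features in each direction, and those called beside 5.27% higher and 4.97% lower. Of 26 transcription and processing factors, 14 were higher and 9 lower at an adjusted p below 0.05, none was called by edgeR or by DESeq2 (14 and 9 also at an unadjusted p below 0.05), and the median log2 fold change was 0.17. Slbp, the stem-loop binding protein, had 7620 and 7181 normalized counts in wt and 10267 and 10411 in null cells (log2 fold change 0.48, adjusted p = 4.77e-10, edgeR). Npat, the coactivator of the clusters, rose from 7044 and 7331 to 9533 and 9632 (log2 fold change 0.41, adjusted p = 1.19e-09, edgeR). Lsm11 and Lsm10, parts of the U7 particle, went in opposite directions (0.76 and −0.31). Ccne1, cyclin E1, whose kinase acts on NPAT, rose by 0.97, and Eri1, the exonuclease that trims and degrades histone mRNA, by 0.30. Casp8ap2 (FLASH) was at 0.03, with an adjusted p of 0.289 (edgeR), and Hinfp, the H4 gene activator, at 0.10 (adjusted p = 0.0317, edgeR), a difference that did not pass under DESeq2 (0.11) or when either wt replicate was left out (0.07 and 0.10).

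Of the 17 replication-independent histone genes listed, 14 were tested, of which 8 were higher and 3 lower, with a median of 0.40. H2afy2, a macroH2A gene, had 405 and 409 normalized counts in wt and 3645 and 3739 in null cells (log2 fold change 3.18, adjusted p = 2.67e-17, edgeR), and H1fx, the H1.10 linker histone gene, 2491 and 2469 in wt and 4997 and 5146 in null cells (log2 fold change 1.03, adjusted p = 2.81e-13, edgeR). Both were called higher. H2afz (0.41), H2afx (0.39) and H3f3a (0.39) rose by less, and H3f3b fell by 0.08, a fall that did not pass with scaling to total counts or without null replicate 1 (−0.035). H1f0, the linker histone of resting cells, was at 10217 and 9610 in wt and 9713 and 10280 in null cells, with overlapping groups (adjusted p = 0.763, edgeR).

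Of the 23 histone chaperone genes tested, 7 were higher and 11 lower (median −0.09). Asf1b, an H3 and H4 chaperone of dividing cells, was called lower, at 14310 and 14557 normalized counts in wt and 6628 and 7003 in null cells (log2 fold change −1.08, adjusted p = 1.17e-14, edgeR). Chaf1a, the large subunit of chromatin assembly factor 1, had a log2 fold change of −0.38.

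The cell cycle lists showed no common shift. Of 28 S phase genes, 12 were higher and 11 lower with a median of −0.02, and of 20 G2 and M phase genes 10 were higher and 9 lower with a median of 0.02; none of either list was called by edgeR or by DESeq2, and an unadjusted p below 0.05 gave the same numbers. Pcna had a log2 fold change of −0.33 and Mki67 one of 0.13, the second of which was 0.065 and did not pass without wt replicate 1. In bulk RNA, fewer cells in S phase and less histone RNA per cell cannot be told apart.

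**Figure D5:**
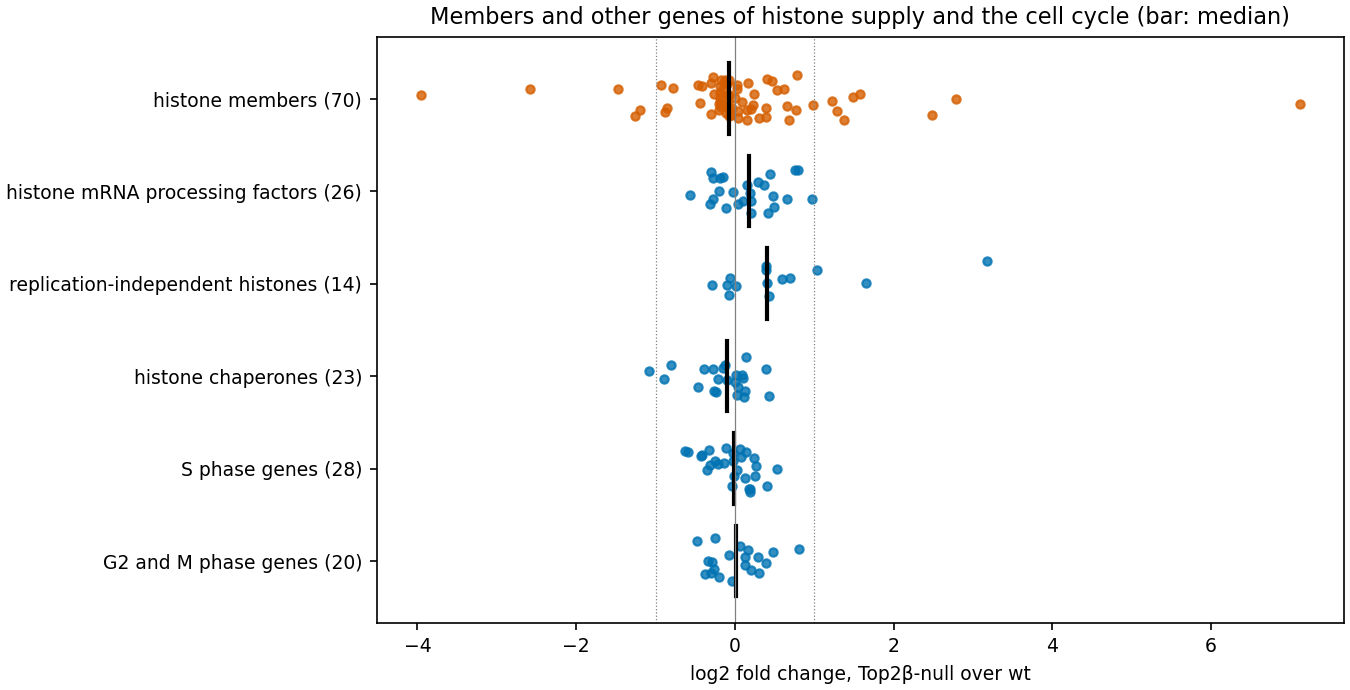
Log2 fold change, Top2β-null over wt, of the 70 members (orange) and of the genes tested in 5 lists (blue), each point a gene, with a bar at the median and dotted lines at −1 and 1; vertical spread within a row carries no value. Medians lie between −0.09 for the chaperones and 0.40 for the replication-independent histones. The members reach farther on both sides than these lists, but both ends are pseudogenes, Hist1h2al (7.12) and Hist3h2bb-ps (−3.96). Among the other members the highest, Hist3h2ba (2.78), is under H2afy2 (3.18) of the lists, and the lowest is Hist1h2bn (−2.58).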

How the data were processed

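According to the methods, the authors used Trim Galore! for trimming of the 150-bp read pairs, STAR for alignment (mm10, up to 100 positions a read), and counted genes (Gencode M9) and repeat families with TEtranscripts. The deposited values are raw counts for 54842 gene rows and 1562 repeat rows in 4 libraries. The counting mode and strand setting are not given in the sources used here. Reads from near-identical histone copies may be divided between them by this counting, so the share of 150-base windows that recur in other annotated transcripts, on either strand, is given for the called members and some others.

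Gene identifiers were matched to GENCODE M21, which named 54409 rows and may differ from the authors' gene models. Counts were scaled by TMM factors over genes and repeats, a feature needed 10 counts or more in 2 or more libraries to be tested, and genotypes were compared with edgeR 4.0.16 (quasi-likelihood, R 4.3.3), with Benjamini-Hochberg adjustment over 26566 features. The cut-offs for a call (adjusted p below 0.05, absolute log2 fold change above 1, mean normalized count above 100) follow the study's methods, which used DESeq2; DESeq2 1.42.0, other scalings and filters, a replicate block and each library left out were tried as alternatives. Log2 ratios of summed counts are descriptions, given with the SD between replicates on the log2 scale and no p. An exact permutation test of 2 against 2 libraries cannot go below 0.33. Nothing says that replicates came from separate cultures, so p-values measure only the spread between these libraries, which may be technical. The replicates differed by more than sampling noise (chi-square per degree of freedom 3.65 and 5.07).

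The members and lists were chosen with earlier results of these data known. Named were every H1 member, in each other class the 3 members highest per kilobase and those with the largest rise and fall, and every called member. Also named were the testis histones, the Hist3 members and a set of genes of histone supply. Hist1h1a's neighbours, Hist1h4i, Hist1h2bc, Hist1h2bm, Hist1h2br, pair partners outside the rule and the opposite-strand models were added after their values were seen.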

Additional observations from a re-analysis of the deposited data

How the results depend on the processing

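The same 10 members were called under DESeq2, TMM factors from genes only, no filter on low counts, the replicate block and without either wt replicate. Scaling to total counts and leaving out null replicate 1 added Hist1h4i, leaving out null replicate 2 added Hist2h2be, and requiring 100 counts in every library lost Hist1h2al and Hist3h2bb-ps, which that filter removes. The replicate numbers were not shown to pair the libraries (correlation of same-numbered deviations 0.02 over 17952 features), and with the replicate block 5 members were called higher and 5 lower, and 25 and 32 passed the adjusted p alone. By adjusted p alone, the numbers higher and lower were 24 and 27 under DESeq2, 29 and 23 with scaling to total counts and 21 and 30 with 100 counts in every library, and 23 to 28 and 27 to 35 with 1 library left out. Of 353 values of 60 named genes under alternatives that kept all libraries, 344 stayed on the same side of the threshold with the same sign, 5 no longer passed, 4 newly passed and 0 changed direction. With 1 library left out the log2 fold change ranged from −0.0136 to 0.0742 for Hist1h1e, −0.0101 to 0.113 for Hist1h2bk, −0.179 to 0.0121 for Hist1h4h, −0.0051 to 0.0672 for Casp8ap2 and −0.0459 to 0.0916 for H1f0. The cause was not tested.

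The log2 ratios of summed counts moved by more than the replicate SD as follows, and the cause was not tested. Scaling to total counts gave 0.0854 for all members, 0.29 for H1, 0.0196 for H2A, −0.0607 for H2B, −0.0272 for H3, 0.0599 for Hist1, −0.0296 for Hist2, −0.52 for Hist3 and 1.65 for Hist4, and TMM factors from genes only gave 0.24 for H1. Keeping only members with under 10% recurring windows gave 0.13 for all members, 0.31 for H1, 0.0518 for H2A, −0.25 for H2B, 0.0919 for Hist1, −0.34 for Hist2 and −2.60 for Hist3. Leaving out the most abundant member gave 0.31 for H1, 0.0119 for H2A, −0.0024 for Hist2 and −2.60 for Hist3. The median over members in place of the sum gave −0.0696 for all members, 0.28 for H1, −0.0447 for H2B, −0.0471 for H3, −0.0723 for H4, −0.0572 for Hist1 and −0.44 for Hist3. With a replicate left out the H2A ratio ranged from −0.0757 to −0.0253. Chosen after seeing the data, coding members only gave −0.18 for H2A and −0.42 for Hist3, adding the opposite-strand models gave −0.11 for H2A, and leaving out the called member gave 0.032 for H1 and −0.0080 for H4. The low counts of Hist1h1t, Hist1h2aa and Hist3h2ba limit the precision of their fold changes.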

Other observations

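Around the pseudogene Hist1h2al, 12 other genes were tested within 1 Mb on either side. Of these, 1 was called higher, Gm44341 on the strand opposite Hist1h2al, and 2 were called lower. Sema4d, the semaphorin 4D gene, had 558 and 569 normalized counts in wt and 75.6 and 87.2 in null cells (log2 fold change −2.79, adjusted p = 1.63e-12, edgeR). The lincRNA Gm26651 had 343 and 367 in wt and 126 and 100.03 in null cells (log2 fold change −1.65, adjusted p = 9.72e-09, edgeR). The nearest coding genes on the lower and upper side, Spin1 and S1pr3, had log2 fold changes of 0.29 and −3.11, the mean of S1pr3 being under the level set for a call. The rise of Hist1h2al was thus not shared by the coding genes on either side of it at a comparable size.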
